A study of Mus musculus with 4 samples.

Results

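Plasma cells, which arise from B cells and secrete antibodies, were described in orthotopic CT26 tumors by single-cell RNA sequencing. They were the cells to which the authors' annotation gave the name Plasma, 66 of 17674 cells, and they formed the smallest of the 20 annotated clusters. Of these, 50 came from Cyp51-KO tumors and 16 from sg-Ctrl tumors. The B cells of the same annotation, 181 and 137 cells, served as the reference, since both belong to 1 lineage.

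CT26 is a mouse colorectal cancer line. In the Cyp51-KO group it carried a guide RNA against Cyp51, a demethylase of cholesterol synthesis, and in the sg-Ctrl group a control guide. Infected cells had been sorted as a TagBFP-positive pool, and the knockout concerned the implanted tumor cells alone, so the plasma cells of both groups came from hosts with an unedited Cyp51 gene. The hosts were male BALB/c mice of 8 to 10 weeks at injection, which have their own B cells. Tumors were taken at day 26, 9 in the Cyp51-KO group and 12 in the sg-Ctrl group. Leukocytes (sorted as CD45+), T cells (sorted as CD45+ CD3+) and tumor cells (sorted by BFP, without CD45) were then mixed at 50%, 40% and 10% before droplet sequencing from the 5′ end of the RNA. Although 2 samples per group are listed, each cell is tied to its group and not to a library. Each group was therefore 1 sample, and no test between groups was possible. Intervals given with shares and medians are exact 95% intervals over cells, so they leave out the spread between tumors, sorts and libraries and cover counting error alone.

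When a B cell becomes a plasma cell, it enlarges its endoplasmic reticulum and turns much of its transcription to immunoglobulin chains, with the J chain (Jchain) that links antibody polymers. The factor Xbp1 supports this secretory build, and Sdc1 (CD138) is the surface protein by which plasma cells are usually sorted. Plasma cells also tend to carry less CD45 on the surface than B cells, and the leukocyte gate used CD45. In the gut wall they are mostly known as the source of IgA.

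The table held totals per cell and no values per gene. The levels of Jchain, Xbp1 and Sdc1 were therefore not analysed here, and the name of the cluster rests on the authors' annotation. What could be measured, beside cell numbers, was each cell's total of unique molecular identifiers (UMIs, each standing for 1 captured RNA molecule), the number of genes detected, the percentage of UMIs from mitochondrial genes, and the totals after the authors' SCTransform normalization. The median cell of all clusters held 6508.5 UMIs (Cyp51-KO) and 7822.5 UMIs (sg-Ctrl). In all, 98 cell barcodes occurred in both groups, and 1 plasma cell was among the cells that carried them.

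Plasma cells made up a larger part of the B lineage in Cyp51-KO tumors. Among plasma and B cells together, 21.6% were plasma cells in Cyp51-KO tumors (50 of 231 cells, 16.5 to 27.5%). The sg-Ctrl tumors had 10.5% (16 of 153 cells, 6.10 to 16.4%), which gave a log2 ratio of 1.05. The 2 intervals lay apart, but by a narrow margin. Expressed against B cells, there were 27.6 plasma cells per 100 B cells in the Cyp51-KO group and 11.7 in the sg-Ctrl group. This ratio was taken first because the CD3+ T cells and tumor cells that were added at set parts enter neither of its terms. A gate on CD45 can still pass plasma cells and B cells unequally.

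B cells themselves differed little in share. Of the lymphocytes, 3.04% were B cells in the Cyp51-KO group (2.62 to 3.51%) and 2.64% in the sg-Ctrl group (2.22 to 3.11%). These intervals overlapped, and the log2 ratio was 0.20. Among NK, B and plasma cells they were 12.2% and 12.0%. The counts of plasma cells therefore carried the larger part of the difference in the B-lineage ratio.

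The plasma cell share was higher in Cyp51-KO tumors with every denominator tried, though the intervals did not always lie apart. Over NK, B and plasma cells it was 3.37% (2.51 to 4.42%) against 1.40% (0.801 to 2.26%), with separate intervals. Over lymphocytes, which include the added T cells, the log2 ratio was 1.45, and the intervals lay apart. With all immune cells as the denominator, the shares were 0.633% and 0.250% (log2 ratio 1.34, separate intervals). The intervals overlapped over immune cells without the T cell clusters, at 1.46% (1.08 to 1.92%) and 0.682% (0.390 to 1.11%), and over all cells, at 0.477% (0.354 to 0.628%) and 0.223% (0.127 to 0.361%).

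**Figure D1:**
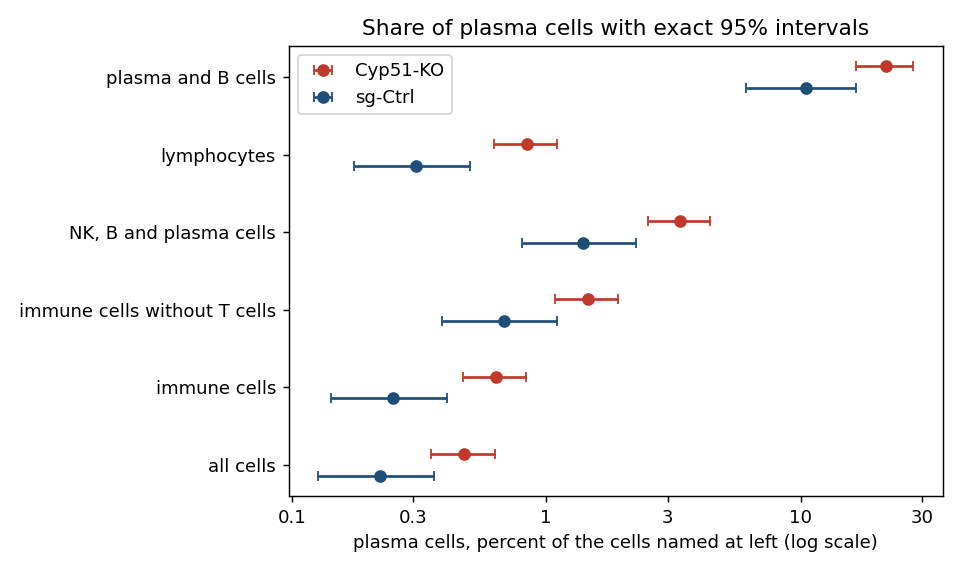
Plasma cells as a percentage of 6 sets of cells (log scale) for each group (Cyp51-KO red, sg-Ctrl blue). Bars are exact 95% binomial intervals. The Cyp51-KO share lies above the sg-Ctrl share in each set, and the intervals overlap for immune cells without T cells and for all cells.

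Few as they were, plasma cells held much of the RNA captured from the B lineage. In Cyp51-KO tumors the 50 plasma cells held 1054043 UMIs and the 181 B cells 513924, so that 67.2% of B-lineage UMIs came from plasma cells. The 16 plasma cells of sg-Ctrl tumors held 505194 UMIs and the 137 B cells 786501, a plasma cell part of 39.1%. Of the UMIs of all lymphocytes, plasma cells held 2.87% and 1.09%, while they were 0.839% and 0.308% of the lymphocytes themselves.

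A single plasma cell was among the richest in RNA of the whole mix. Over both groups the median plasma cell had 21818 UMIs (18063 to 26981), second of the 20 clusters behind malignant cells at 40941 and ahead of the second functional NK cluster at 16939. The same order held within each group. The plasma cell median was 9.34 times that of B cells in Cyp51-KO tumors and 8.82 times in sg-Ctrl tumors. Over 20000 UMIs were found in 37 of 66 plasma cells and in 2 of 318 B cells.

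Within the cluster the totals ran over almost 2 orders of magnitude. In Cyp51-KO tumors the plasma cells ranged from 775 to 73851 UMIs around a median of 19262.5 (16588 to 22263), with the middle of the distribution, from the lower to the upper quartile, between 8589 and 26504. In sg-Ctrl tumors they ranged from 4729 to 47798 around a median of 34629 (22771 to 39963), with quartiles of 25928.5 and 39759. The median of the Cyp51-KO cells was lower by a log2 ratio of -0.85, and the 2 intervals lay apart, while the ranges of the groups overlapped widely. All 16 sg-Ctrl cells fell inside the range of the Cyp51-KO cells.

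The lower UMI total in Cyp51-KO tumors was shared with other cells. B cells had medians of 2062 (1803 to 2260) and 3924 (3772 to 4381), a log2 ratio of -0.93. Ordered by this ratio, plasma cells were seventh from the lowest of the 20 clusters, between Treg cells (-0.88) and dendritic cells (-0.79), with Th1-like cells (-1.18) and intestinal cells (0.19) at the ends. Whether RNA content per plasma cell or capture differed between the groups cannot be told apart from these totals.

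**Figure D2:**
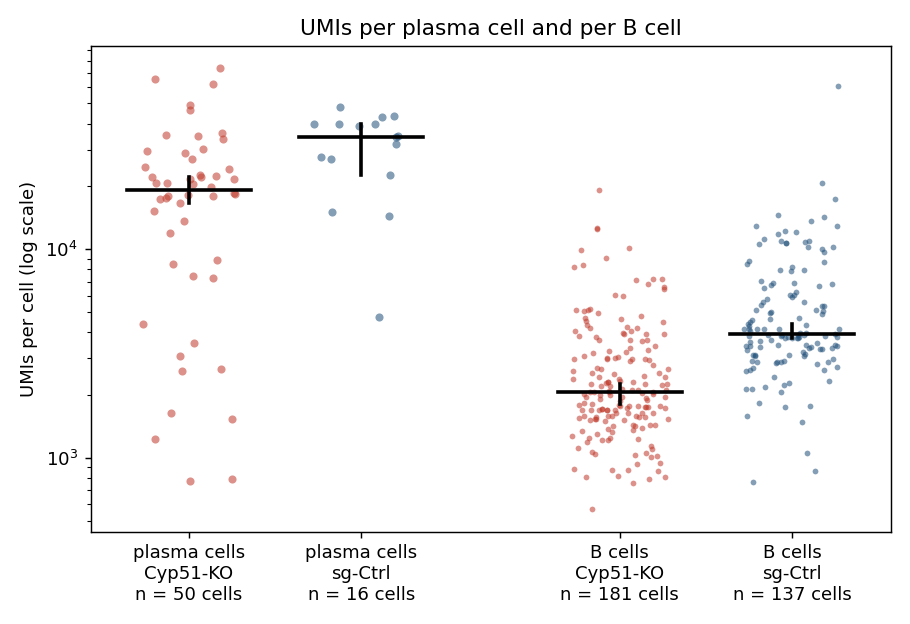
UMIs per cell (log scale) for each plasma cell and B cell of both groups, with the median as a horizontal line and its exact 95% interval as a vertical bar. Plasma cell medians of 19262.5 and 34629 stand above the B cell medians of 2062 and 3924, and 10 Cyp51-KO plasma cells lie under 5000 UMIs against 1 sg-Ctrl plasma cell.

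Both ends of the distribution held few cells. Of the 50 plasma cells from Cyp51-KO tumors, 10 had under 5000 UMIs (a share between 10.0 and 33.7%). Of the 16 from sg-Ctrl tumors, 1 did, a cell of 4729 UMIs (0.158 to 30.2%), and the intervals overlapped. No Cyp51-KO plasma cell lay between 4391 and 7246 UMIs. Over 60000 UMIs there were 3 of the 50 Cyp51-KO cells (1.25 to 16.5%) and 0 of the 16 sg-Ctrl cells (up to 20.6%), again with overlapping intervals. Among plasma cells of at least 5000 UMIs, a limit set after the data were seen, the medians were 21818 and 34833 UMIs and the log2 ratio -0.67.

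Despite their UMIs, plasma cells did not stand out in genes detected. The Cyp51-KO median was 2283 genes (1883 to 2839) and the sg-Ctrl median 3049.5 genes (2601 to 3684), seventh highest of the 20 clusters in each group, and the intervals overlapped (log2 ratio -0.42). Against B cells, whose medians were 951 and 1596 genes, this was 2.40 and 1.91 times as many genes, far less than the gap in UMIs. Transcription focused on few genes is the textbook state of a plasma cell, but which genes held the UMIs was not analysed here.

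Genes detected per 1000 UMIs put plasma cells at the bottom of the order, beside malignant cells. The median over both groups was 118 (105 to 159), just under malignant cells at 124 (122 to 126), and these intervals overlapped. The next cluster, the second functional NK cluster, had 211 and B cells had 428. At the top stood Treg cells at 439. This number falls as a cell's UMIs rise, and plasma and malignant cells were also the clusters with the most UMIs. The Cyp51-KO value was 135 (112 to 176), above the malignant cells of that group. The sg-Ctrl value was 92.6 (79.9 to 123), the lowest of all clusters. Within each group the intervals of plasma and malignant cells overlapped. The log2 ratio of 0.55 between the groups was the highest of the 20 clusters, though the plasma cell intervals of the 2 groups overlapped.

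**Figure D3:**
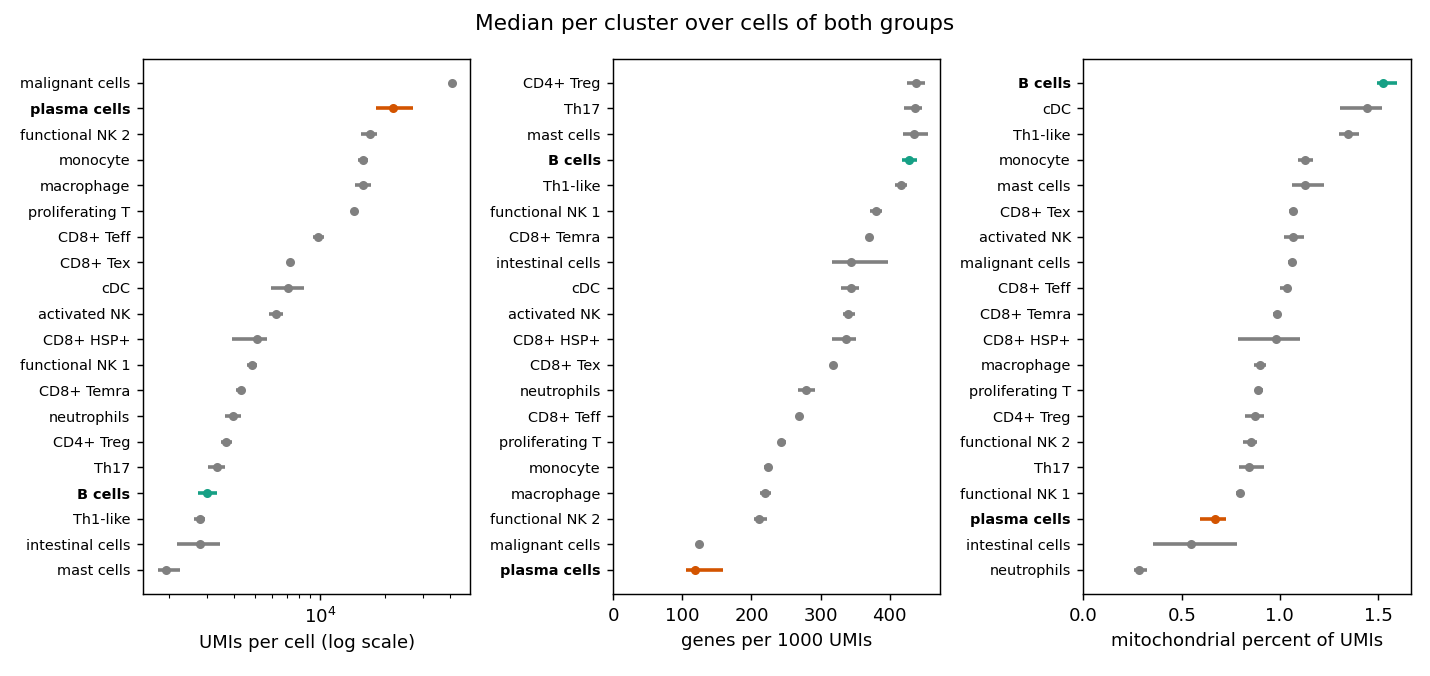
Medians of the 20 clusters over cells of both groups for UMIs per cell (log scale), genes detected per 1000 UMIs and mitochondrial percent of UMIs, each panel sorted, with exact 95% intervals as bars. Plasma cells (orange) are second in UMIs, lowest in genes per 1000 UMIs at 118 and low in mitochondrial percent at 0.671%, and B cells (green) have the highest mitochondrial percent.

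To take depth out of the count of genes, each plasma cell was set against the other immune cells of its own group whose UMIs lay within a factor of 1.25 of its own. The number of its genes over their median number of genes is called the gene ratio here, and a value of 1 means as many genes as immune cells of like depth. From 12 to 1424 cells, at the median 499.5, served as the reference for a plasma cell. This measure and its limits were chosen after the data were seen.

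Most plasma cells had fewer genes than the median of other immune cells of like depth. The median gene ratio was 0.725 for Cyp51-KO (0.642 to 0.861, range 0.434 to 1.17) and 0.595 for sg-Ctrl (0.564 to 0.725, range 0.484 to 0.949). B cells had 0.975 and 0.987 against the same reference, which held B cells but no plasma cells. This can draw the B cell values toward 1. The clusters that fill the reference can also differ with depth. Over both groups the second functional NK cluster and macrophages had medians of 16939 and 15784 UMIs, and Th1-like cells 2777. Plasma and B cells may thus have been set against different cell types. The intervals of the plasma cells overlapped between the groups (log2 ratio 0.29), and those of plasma cells and B cells lay apart in both. Fewer genes than 99% of their reference cells were found in 36 of 66 plasma cells and in 0 of 318 B cells (exact interval up to 1.15%).

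Single cells show what the ratio means. The lowest value, 0.434, was that of a Cyp51-KO plasma cell with 21817 UMIs spread over 1777 genes. A cell of the same group with 22485 UMIs had 3580 genes and a ratio of 0.861. In sg-Ctrl tumors the lowest, 0.484, had 32015 UMIs and 2528 genes, while a cell of 39691 UMIs had 4881 genes and a ratio of 0.854. Cells under the same name thus differed widely in genes detected at like depth.

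**Figure D4:**
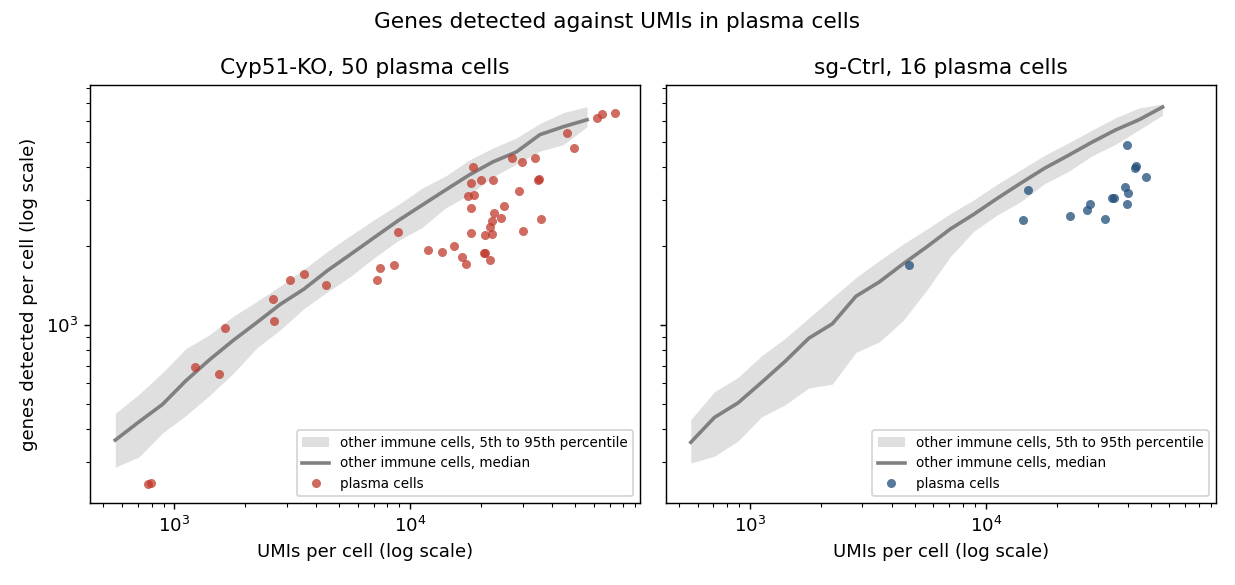
Genes detected against UMIs per plasma cell (both log scales) in Cyp51-KO tumors (left, 50 cells) and sg-Ctrl tumors (right, 16 cells), over the median and the 5th to 95th percentile of the other immune cells of the group. Most plasma cells from 5000 to 60000 UMIs lie below the band, while 8 of the 10 Cyp51-KO cells under 5000 UMIs and the 3 cells over 60000 UMIs lie on or near it.

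A gene ratio under 0.8 was found in 40 of 66 plasma cells and in 1 of 318 B cells. By group these were 27 of the 50 Cyp51-KO cells (54.0%, 39.3 to 68.2%). Among the 16 sg-Ctrl cells there were 13 (81.3%, 54.4 to 96.0%), and the intervals overlapped. The limit cuts a continuous range and does not mark a cell type. The values next to it were 0.751 and 0.810, with 5 cells from 0.7 to 0.8 and 10 from 0.8 to 0.9. The gene ratio was computed for plasma and B cells only, so its share in other clusters was not measured. In sg-Ctrl tumors the neutrophil medians were 983 genes and 3903 UMIs, while those of B cells were 1596 genes and 3924 UMIs. In Cyp51-KO tumors neutrophils had 1330 genes and 4040 UMIs. Few genes at a given depth were therefore not seen in plasma cells alone.

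The ratio moved with depth inside the cluster. From 5000 to 60000 UMIs it was under 0.8 in 25 of 37 Cyp51-KO and 13 of 15 sg-Ctrl plasma cells. Under 5000 UMIs it was under 0.8 in 2 of 10 and 0 of 1. The 2 cells in question had the fewest UMIs of all, 775 and 793, with 247 and 250 genes, and their mitochondrial percentages were 1.42% and 4.04%. The other 8 Cyp51-KO cells under 5000 UMIs had from 652 to 1560 genes and ratios of 0.811 to 1.17, within the range of B cells. The 3 cells over 60000 UMIs had 6187, 6392 and 6426 genes and ratios of 0.994, 1.02 and 0.977, but only 28, 24 and 12 reference cells had like depth. The sources used here do not say how doublets were handled, and whether these 3 droplets held more than 1 cell was not tested.

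**Figure D5:**
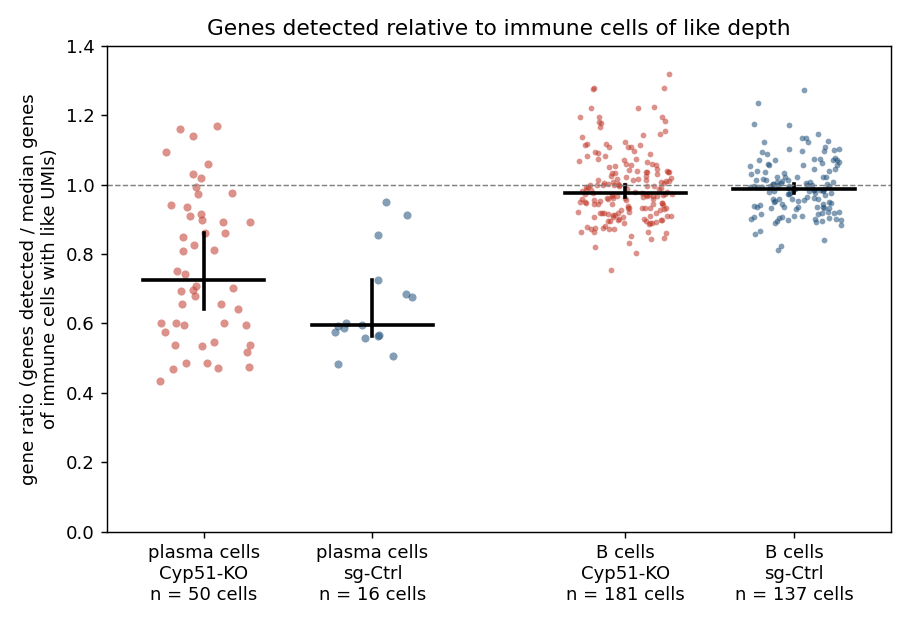
Gene ratio, the genes detected in a cell over the median of immune cells of its group with like UMIs, for each plasma cell and B cell, with the median as a horizontal line and its exact 95% interval as a vertical bar. Plasma cells spread from 0.434 to 1.17 in Cyp51-KO and from 0.484 to 0.949 in sg-Ctrl tumors, and B cells lie around 1 (dashed line).

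The plasma cell share was also taken on each side of this limit. Plasma cells with a gene ratio under 0.8 were 11.7% of the Cyp51-KO B lineage (27 of 231 cells, 7.85 to 16.5%) and 8.50% of the sg-Ctrl B lineage (13 of 153 cells, 4.60 to 14.1%). The log2 ratio was 0.46, and the intervals overlapped. Plasma cells at 0.8 or more were 9.96% (23 cells, 6.42 to 14.6%) and 1.96% (3 cells, 0.406 to 5.62%), a log2 ratio of 2.34 with separate intervals. The log2 ratios of the 2 sides had overlapping ranges, -0.84 to 1.85 under the limit and 0.19 to 5.16 at or above it, so a difference between the sides was not shown. Over lymphocytes the cells under 0.8 were 0.453% and 0.250%, with overlapping intervals. Of the 23 Cyp51-KO cells at 0.8 or more, 8 had under 5000 UMIs. Because the limit was set on these cells, the counts are a description of them.

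Among cells under the limit, the median mitochondrial percentage was 0.601% (Cyp51-KO) and 0.596% (sg-Ctrl), with overlapping intervals. Their UMIs had medians of 20674 and 34833, a log2 ratio of -0.75 with separate intervals. Their genes had medians of 2197 and 3040, also with separate intervals (log2 ratio -0.47).

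Direct comparison with B cells of like depth was possible for few plasma cells. No B cell of the group had like UMIs for 27 of the 66 plasma cells, and 5 or more did for 17. Those 17 had a median of 0.892 times the genes of such B cells. They ran from 775 to 15090 UMIs, below the cluster median of 21818, and included all 11 plasma cells under 5000 UMIs. The value therefore does not stand for the cluster as a whole.

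Mitochondrial RNA was low in plasma cells as a percentage. Its median was 0.686% of UMIs for Cyp51-KO (0.595 to 0.770%) and 0.599% for sg-Ctrl (0.459 to 0.773%). The log2 ratio was 0.20, and the intervals overlapped. B cells had 1.45% (1.34 to 1.50%) and 1.68% (1.60 to 1.76%). Over both groups B cells, at 1.53%, were the highest of the 20 clusters and plasma cells, at 0.671%, were low in the order, just above intestinal cells (0.548%) and neutrophils (0.282%). The percentage lay below the B cell median of the group in 46 of 50 Cyp51-KO and 15 of 16 sg-Ctrl plasma cells. The log2 ratio of B cells pointed the other way, at -0.21. Ordered by this ratio, plasma cells were 18th from the lowest of the 20 clusters, between B cells and neutrophils (1.40). Mast cells (-0.87) and intestinal cells (1.88) stood at the ends. Every cluster below plasma cells in this order had a negative ratio.

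In absolute terms the order was the other way round. The median plasma cell had 118.5 mitochondrial UMIs (Cyp51-KO) or 199.5 (sg-Ctrl), which was 3.70 and 2.81 times the B cell medians of 32 and 71. Plasma cells thus held more mitochondrial RNA than B cells and a smaller percentage of it, since their other UMIs were higher still. Above 2.5% mitochondrial UMIs there were 2 plasma cells, both of Cyp51-KO tumors and both under 5000 UMIs (793 UMIs at 4.04% and 2652 UMIs at 3.13%). A sg-Ctrl cell of 15090 UMIs followed at 2.39%.

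The totals after SCTransform set plasma cells apart from all other clusters. SCTransform is a regression of each gene on sequencing depth, and its corrected counts are those a cell of typical depth would show, so the corrected totals of most clusters lie close together. The plasma cell median was 9119.5 corrected UMIs for Cyp51-KO (8198 to 9752) and 11322 for sg-Ctrl (10200 to 12420), the highest of the 20 clusters in both. The next was the second functional NK cluster (7767, Cyp51-KO) or the macrophages (8048, sg-Ctrl), and B cells had 5988 and 6436. A corrected total over 9000 was found in 40 of 66 plasma cells, in 0 of 318 B cells (up to 1.15%), in 1 of 292 cells of the second functional NK cluster, in 3 of 3157 malignant cells and in 0 cells of the other 16 clusters.

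High corrected totals went with low gene ratios. Of the 40 plasma cells with a gene ratio under 0.8, 32 had a corrected total over 9000, and of the 26 others, 8 did. By group the share over 9000 was 27 of 50 cells in Cyp51-KO and 13 of 16 in sg-Ctrl tumors. Both measures come from the same counts of the same cells and are not independent.

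Genes with a corrected count above 0 turned the direction of the raw value. Their median was 1454 in Cyp51-KO plasma cells (1174 to 1653) and 1027.5 in sg-Ctrl plasma cells (923 to 1692), with overlapping intervals and a log2 ratio of 0.50, against -0.42 for genes detected before correction. The sg-Ctrl value was the lowest of the 20 clusters. B cells had 1238 (1219 to 1286) and 1620 (1563 to 1730), and their intervals overlapped those of plasma cells in both groups. The direction of the difference in genes between the groups therefore depended on the scale.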

How the data were processed

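Cells of CT26 tumors were sequenced with the 10x Chromium 5′ kit. Cell Ranger 7.0, Seurat 4.2.0, R 4.2.0 and the genome GRCm38 were used by the authors, per the submitters' processing notes and the paper. The authors merged all samples, removed cells by genes, UMIs and mitochondrial percent, and removed very small clusters of the control group. The deposited table gives raw UMI counts per cell (500 to 99951), genes detected and the mitochondrial percent (at most 4.98%) that the authors computed. Its totals after SCTransform are treated as a score made by the authors, since they are corrected and not raw counts. Free RNA could not be measured, no doublet caller was run, and cells could not be thinned to 1 depth without counts per gene.

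From these columns, shares with exact (Clopper-Pearson) 95% intervals and medians with exact 95% intervals from ordered cells were computed per group with Python 3.11.15, pandas 2.3.3, NumPy 2.4.6 and SciPy 1.17.1. Figures were drawn with Matplotlib 3.10.9. A log2 ratio is the Cyp51-KO over the sg-Ctrl value. Its range, where given, sets the lower bound of each group against the upper bound of the other. No test was made, since each group counts as 1 sample. Lymphocytes are 13 clusters (5957 and 5193 cells). The members, marker genes and measures were chosen with earlier results of these data known. Clusters named are plasma and B cells, the neighbours of plasma cells in each order and its ends. Alternatives were other denominators, stricter filters on UMIs and mitochondrial percent, dropping in each group and cluster the 5% of cells with the most UMIs, means in place of medians, and corrected totals. Those that use the gene ratio or 5000 UMIs were added after the data were seen.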

Additional observations from a re-analysis of the deposited data

How the results depend on the processing

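Across 7 results and 42 alternatives, 40 kept their direction and stayed inside a range around the reported value. That range spans the opposite bounds of the 2 group intervals and is wide, so staying inside it says little. The filters on UMIs and mitochondrial percent, and dropping the cells with the most UMIs, each left 48 Cyp51-KO and 16 sg-Ctrl plasma cells. They could therefore change the values little. With totals after SCTransform, the log2 ratio of genes per plasma cell reversed to 0.50 and that of genes per 1000 UMIs moved to 1.19 (203 against 89.2). The cause was not tested. The log2 ratio ran from 0.46 to 1.06 for the share of the B lineage, from 0.86 to 1.44 for the share of lymphocytes, from -1.04 to -0.31 for UMIs, from 0.013 to 0.30 for mitochondrial percent and from 0.17 to 0.31 for the gene ratio. The alternatives for the gene ratio, and those at the low ends of both shares and of mitochondrial percent, were added once the data had been seen. No paired analysis was possible because cells are tied to no library and no test was made. For the same reason leaving out each library was not run. Shares by barcode suffix were not run, since all barcodes end alike, and corrected totals give no mitochondrial percent. With 16 sg-Ctrl plasma cells, counting error alone leaves the B-lineage log2 ratio between 0.0076 and 2.17, and differences between tumors or libraries add to it by an unknown amount.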
